A study of Homo sapiens with 20 samples.

Results

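The 10 genes described here are 8 matrix metalloproteinases (MMP1, MMP2, MMP3, MMP7, MMP9, MMP10, MMP13 and MMP14) and 2 of their tissue inhibitors (TIMP1 and TIMP2). They were taken by symbol from an mRNA-seq table of 36076 genes, and each symbol had a single row. The question was how much of each gene the lung cancer lines expressed, how the level changed after decitabine (DAC), and how CL1-0 differed from its invasive subline CL1-5. DAC is a drug that lowers DNA methylation by trapping the enzymes that maintain it.

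Matrix metalloproteinases are zinc-dependent proteases that cut collagen, gelatin, laminin and other proteins outside the cell. They are made as inactive proforms, and plasmin or other proteases remove the propeptide. TIMPs bind the active site and block it, and TIMP2 together with MMP14 at the cell surface also takes part in the activation of pro-MMP2. In tumors these enzymes are known for the breakdown of basement membrane and for cell invasion.

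mRNA-seq was performed on 12 libraries, a Mock (PBS-treated) and a DAC library (100 nM for 72 h, then 3 days without drug) each of A549, H1299, CL1-0, CL1-5, H1792 and PC9 cells. Omni-ATAC-seq, which maps accessible chromatin with a transposase, gave 8 peak lists, Mock and DAC of the libraries labelled A549, H1299, CL1-5 and PC9, with the same treatments. There was 1 library per line and treatment, so the lines are the replicates. All 6 are established human lung adenocarcinoma lines, and no primary or normal lung cell was included.

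Between 22234485 and 25303899 reads were counted on genes in the 10 libraries other than H1299, and 59735913 and 52634234 in those of H1299, where most read numbers were even. Epithelial markers (EPCAM, CDH1, KRT7, KRT8, KRT18 and KRT19) were at or near 0 in CL1-0, with a summed level of 0.986 FPKM in Mock and 3.05 after DAC against 112 to 3589 in the other lines. In Mock CL1-5, KRT8 (75.9 FPKM) and KRT18 (65.7) made up most of the sum of 144. EPCAM and CDH1 were at 0.132 and 0.478 FPKM there, against 0.151 and 0.562 in Mock CL1-0. The lung lineage genes NKX2-1, SFTPB, NAPSA and SFTPC summed to at most 0.780 FPKM in any library, so that the defining genes of that lineage were near 0 in every line. Leukocyte markers summed to 0.183 to 1.13 FPKM outside A549, where CD14 alone reached 4.23 in Mock and 7.38 after DAC. The fibroblast markers COL1A1, DCN, LUM and PDGFRB summed to 99.6 and 140.2 FPKM in H1792 against 0.276 to 3.86 elsewhere.

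The labels of the CL1-5 and PC9 Omni-ATAC-seq libraries and the line names inside their peak lists were exchanged. By mRNA-seq of Mock cells, 72 genes were at 10 FPKM or more in PC9 and at 3 reads or fewer in CL1-5. Peaks at their promoters numbered 68 for the label CL1-5 and 31 for the label PC9 in Mock. The reverse pattern of expression held for 29 genes, of which 10 carried a peak under the label CL1-5 and 19 under the label PC9. The expression data therefore went against these labels, and the libraries are named by label below together with the line inside the list.

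The genes fell into 2 kinds by the sequence before their start sites. The MMP7, MMP10, MMP1, MMP3 and MMP13 genes lie in this order within a cluster of 9 metalloproteinase genes on chromosome 11, GRCh37 chr11:102391239-102826461, all on the minus strand. In 6 of the 10 genes (these 5 and MMP9), the 120 bases upstream of the start site held the word TGANTCA, the binding motif of the AP-1 transcription factors. This word was found on either strand in 2.19% of 18922 promoter stretches of that length and in 5.4% of windows from 250 bases before to 50 after the start. The stretches of MMP10, which was higher in CL1-0, and of MMP7, the A549 gene, are shown 5′ to 3′ on the gene's strand, up to the base before the MANE start site in GENCODE, with the AP-1 word in capitals because it lies at the same place in both.

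MMP10, chr11:102651360-102651479 (-): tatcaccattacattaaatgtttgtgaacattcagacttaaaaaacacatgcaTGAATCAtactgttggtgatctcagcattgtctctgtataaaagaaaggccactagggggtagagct
MMP7, chr11:102401479-102401598 (-): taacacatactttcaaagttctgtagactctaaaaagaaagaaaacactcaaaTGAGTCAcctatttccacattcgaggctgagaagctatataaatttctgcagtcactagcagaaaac

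The word began 67 bases before the start site in both genes, and read TGAGTCA in MMP7 and TGAATCA in MMP10. The 6 promoters with the word were poor in CpG, the dinucleotide that DNA methyltransferases modify. Between 1 and 5 CpGs stood in the window of 300 bases, against a median of 23 over all promoters.

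MMP14, MMP2, TIMP1 and TIMP2 had no match to this word in the window and more CpGs, 10, 18, 16 and 36. The stretches of MMP14 and TIMP2 are shown with each CpG in capitals, for the gene with the largest difference between CL1-5 and CL1-0 and for the inhibitor with the most CpGs.

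MMP14, chr14:23305674-23305793 (+): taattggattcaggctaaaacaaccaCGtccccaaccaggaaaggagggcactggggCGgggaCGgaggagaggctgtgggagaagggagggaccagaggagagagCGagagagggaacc
TIMP2, chr17:76921470-76921589 (-): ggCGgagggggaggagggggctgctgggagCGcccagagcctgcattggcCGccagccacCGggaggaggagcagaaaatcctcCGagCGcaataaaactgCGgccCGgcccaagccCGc

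The word AGGAAG, bound by PEA3 and other ETS factors, was found on either strand in the window of 5 of the 10 genes (MMP1, MMP2, MMP3, MMP7 and TIMP1) and in 32.7% of all promoters. No AGGAAG match overlapped an AP-1 word.

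Levels are given as FPKM, read numbers divided by the length of the gene and the depth of the library, as the authors normalized them, so that genes of different length can be compared. A level of 3 reads or fewer was treated as not detected. Against 0 reads, a change is given as a multiple of the level of 3 reads, with the lower end of the counting interval. Against 1 to 3 reads the ratio is given with its counting interval, and all intervals cover counting error only. In RNA from bulk cultures, fewer cells that express a gene and less RNA per cell cannot be told apart.

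Among the collagenases, which cut fibrillar collagen, MMP1 (ENSG00000196611, chr11:102660132-102668891, minus strand) ranged from 0 to over 100 FPKM. In Mock it was at 46.4 FPKM in CL1-5, 5.39 in H1299, 0.516 in CL1-0, 0.0818 in H1792 and 0 in A549 and PC9. After DAC it was at 101 in CL1-5, 85.2 in H1299, 3.62 in H1792, 1.22 in CL1-0, 0.140 in A549 and 0.132 in PC9. The order was the same in both treatments except that H1792 passed CL1-0, and only A549 and PC9 overlapped in their intervals after DAC. MMP13 (ENSG00000137745), the other collagenase, stayed under 1 FPKM in every library. Its highest levels were 0.728 (Mock) and 0.548 (DAC) in H1299, and 0.732 in PC9 and 0.465 in CL1-5 after DAC. It was at 0 reads in both CL1-0 libraries and in Mock CL1-5 and Mock A549.

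The gelatinases, which cut denatured collagen and basement membrane collagen, differed widely. MMP2 (ENSG00000087245, chr16:55423612-55540603) was at 182 FPKM in Mock and 191 after DAC in H1792. In Mock it was at 5.27 in CL1-5, 1.67 in H1299, 0.359 in A549, 0.309 in CL1-0 and 0.156 in PC9. After DAC it was at 2.88 in CL1-5, 1.71 in A549, 0.990 in PC9, 0.657 in CL1-0 and 0.568 in H1299. H1792 thus stood far above the other lines in both treatments, and it was also the line with the fibroblast markers. Their part in the MMP2 level was not tested. MMP9 (ENSG00000100985) passed 1 FPKM only in DAC-treated H1299, at 2.09 FPKM. In the other 11 libraries it lay between 0 in both H1792 libraries and 0.379 in Mock CL1-5.

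Of the stromelysins, which cut proteoglycans and laminin and activate other proforms, MMP10 (ENSG00000166670, chr11:102641233-102651359) was the CL1-0 gene. It was at 5.32 FPKM in Mock and 4.28 after DAC in CL1-0, against 0.420 and 0.515 in CL1-5. H1299 had 0.358 in Mock and 1.51 after DAC, and A549, PC9 and H1792 had at most 4 reads per library. MMP3 (ENSG00000149968) was close to silent. Its highest values were 24 reads in DAC-treated H1299 (0.222 FPKM) and 8 reads in DAC-treated CL1-5 (0.161), and the other 10 libraries held 3 reads or fewer. MMP3 did not pass the filter on low values and was not tested.

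MMP7 (ENSG00000137673), matrilysin, a short enzyme without the hemopexin domain of the others, was an A549 gene. It was at 18.4 FPKM in Mock A549 and 4.08 after DAC. The next highest line was H1792 with 0.260 in Mock and 1.29 after DAC, and H1299, PC9, CL1-5 and CL1-0 stayed at or under 0.171 FPKM.

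MMP14 (ENSG00000157227, chr14:23305769-23318250), a membrane-anchored enzyme that activates pro-MMP2, ranged from 0.805 to 221 FPKM. In Mock it was at 159.7 FPKM in H1792, 150.4 in CL1-5, 30.6 in H1299, 2.49 in PC9, 0.892 in CL1-0 and 0.805 in A549. After DAC it was at 221 in H1792, 131 in CL1-5, 21.1 in H1299, 12.5 in PC9, 2.22 in CL1-0 and 1.92 in A549. The order of the lines was identical in both treatments, and only CL1-0 and A549 overlapped in their intervals.

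The inhibitors were expressed everywhere. TIMP1 (ENSG00000102265, chrX:47441807-47446188) was at 222 FPKM in H1299, 208 in H1792, 63.0 in A549, 44.2 in CL1-5, 38.7 in CL1-0 and 23.2 in PC9 in Mock. After DAC it was at 384 in H1792, 161 in H1299, 68.4 in A549, 63.0 in CL1-5, 35.9 in CL1-0 and 22.9 in PC9. TIMP2 (ENSG00000035862, chr17:76849059-76921469) spanned a narrower range, with 49.1 FPKM in H1792, 36.7 in H1299, 29.5 in A549, 22.2 in PC9, 16.1 in CL1-5 and 12.9 in CL1-0 in Mock. After DAC it was at 84.5 in H1792, 66.9 in PC9, 61.9 in A549, 29.3 in H1299, 27.3 in CL1-5 and 13.4 in CL1-0.

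Summed over the 8 metalloproteinases and over the 2 inhibitors, the mRNA level of the proteases exceeded that of the inhibitors only in CL1-5 (3.36 times in Mock, 2.62 after DAC) and in Mock H1792 (1.33 times). In the other lines the Mock ratio was between 0.0601 in PC9 and 0.212 in A549. After DAC it was 0.889 in H1792, 0.585 in H1299, 0.176 in CL1-0, 0.163 in PC9 and 0.0622 in A549. In Mock, MMP14 made up most of the protease sum in PC9 (91.3%), H1299 (78.4%) and CL1-5 (74.1%). In the other lines it was MMP2 in H1792 (53.2%), MMP10 in CL1-0 (74.6%) and MMP7 in A549 (93.4%). These are sums of RNA over the named genes and say nothing of enzyme activity. TIMP3, a further inhibitor outside the sums, was at 51.9 FPKM in Mock and 95.0 after DAC in CL1-5.

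Reads of a gene on the other strand cannot be told apart from those of the member it overlaps, because the use of strand in the counting is not stated. WTAPP1, which overlaps MMP1, MMP3 and MMP10, reached at most 0.216 FPKM (DAC-treated H1299). SLC12A5-AS1 at MMP9 reached 0.421 and SYN1 at TIMP1 4.71 FPKM, both in CL1-0.

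To find out how CL1-5 differed from CL1-0, both lines were compared in a limma fit of log2(FPKM + 0.1) over the 10 libraries of 5 lines (all but H1792), with line and treatment as terms. MMP1 and MMP14 were higher and MMP10 was lower in CL1-5, and the other 6 genes tested did not pass an adjusted p of 0.05. For comparison, 10.3% of the 22603 genes tested were called higher and 8.4% lower in this contrast, so that calls were frequent. The fit had 4 residual degrees of freedom, and the spread is that of the lines around a common treatment effect, not that of repeated cultures.

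MMP1 was at 0.516 FPKM in CL1-0 and 46.4 in CL1-5 in Mock, and at 1.22 and 101 after DAC. The ratio was 89.9 in Mock (95% interval 60.3 to 141) and 83.2 after DAC (65.8 to 107). The log2 difference in limma was 6.25 (SE 0.68, adjusted p = 0.00118).

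MMP14 was at 0.892 FPKM in CL1-0 and 150.4 in CL1-5 in Mock, and at 2.22 and 131 after DAC. The ratio was 169 in Mock (138 to 209) and 58.9 after DAC (52.5 to 66.3), so that the distance between the lines was shorter in the treated cells. The log2 difference was 6.53 (SE 0.62, adjusted p = 0.000667, limma), the largest of the 9 genes tested.

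MMP10 went the other way. It was at 5.32 FPKM in CL1-0 and 0.420 in CL1-5 in Mock, which is 12.7 times higher in CL1-0 (8.02 to 21.2), and 8.31 times higher after DAC (5.36 to 13.5). The log2 difference of CL1-5 against CL1-0 was −3.11 (SE 0.54, adjusted p = 0.00761, limma). MMP1 and MMP10, whose start sites are neighbours in the chromosome 11 cluster, therefore had opposite differences between the same lines.

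MMP2 was at 0.309 FPKM in CL1-0 and 5.27 in CL1-5 in Mock (ratio 17.03, interval 12.2 to 24.5), and at 0.657 and 2.88 after DAC (4.38, 3.49 to 5.55). It did not pass the threshold, with a log2 difference of 2.84 (SE 0.87, adjusted p = 0.0610, limma), and passed it in 5 of 13 other settings, with adjusted p from 0.0335 to 0.110. MMP13 was at 0 reads in both Mock libraries and in DAC-treated CL1-0, and at 32 reads in DAC-treated CL1-5. The latter is 13.0 times the level of 3 reads in CL1-0 (lower end of the interval 9.98). In limma the log2 difference of MMP13 was 1.25 (SE 0.79, adjusted p = 0.329).

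**Figure D1:**
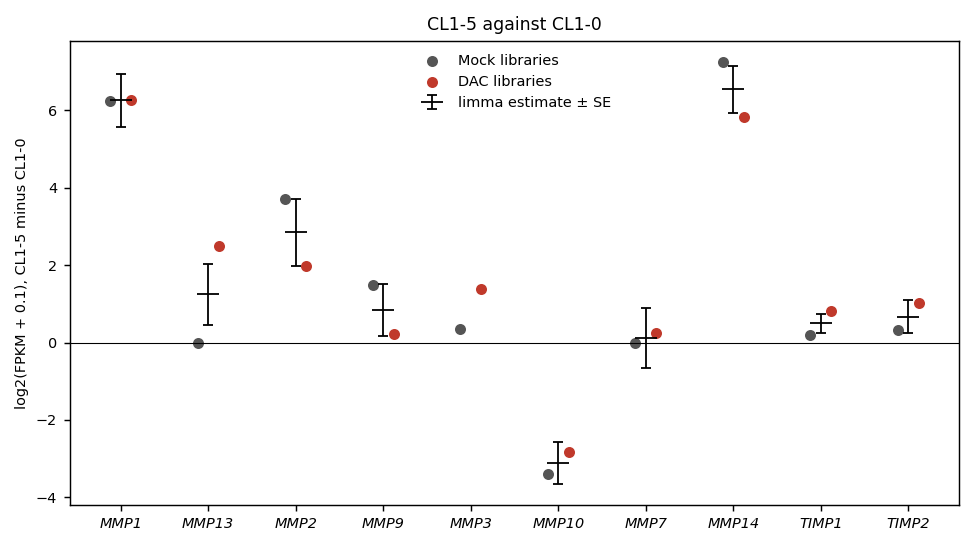
Difference between CL1-5 and CL1-0 for the 10 genes. The y axis is the difference in log2(FPKM + 0.1), CL1-5 minus CL1-0, gray points are the Mock and red points the DAC libraries, and the black bars are the limma estimate ± SE (no estimate for MMP3). MMP1 lies near 6 in both treatments, MMP14 at 7.25 in Mock and 5.82 after DAC, and MMP10 near −3.

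The inhibitors among the 10 genes differed little between the lines. TIMP1 was 1.14 times higher in CL1-5 in Mock and 1.75 times after DAC, with a log2 difference of 0.50 (SE 0.24, adjusted p = 0.207, limma). TIMP2 was 1.25 times higher in Mock and 2.03 times after DAC, with a log2 difference of 0.67 (SE 0.43, adjusted p = 0.335, limma). MMP9 had 4 reads in CL1-0 and 24 in CL1-5 in Mock, and 21 in each after DAC, with a log2 difference of 0.85 (SE 0.67, adjusted p = 0.445, limma). MMP7 had at most 1 read in any of the 4 libraries, and its fitted difference of 0.12 (adjusted p = 0.965) rested on no detected level.

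Counted by fold alone, MMP1, MMP2 and MMP14 were at least 2-fold higher in CL1-5 in both treatments, as were 9.55% of the genes tested, and MMP10 was at least 2-fold lower, as were 8.03%. The median log2 difference of the 9 genes that passed the filter was 0.85, against 0.01 over all genes tested. This median is the value of MMP9, which was not called and had 4 to 24 reads in these libraries.

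Some genes that act together with the metalloproteinases also differed between the lines. The lists were chosen with earlier results of these data known, so that their counts and medians are a description. Beside each count stand the shares of all genes tested in this contrast, 10.3% called higher and 8.4% lower. In the plasminogen activation system, which makes plasmin, 5 of 7 genes tested were called higher in CL1-5 and 0 lower, with a median log2 difference of 3.54 against 0.01 over all genes. PLAU, the urokinase protease, was at 0 reads in Mock CL1-0 and 329 FPKM in Mock CL1-5, and at 0.0572 and 421 FPKM after DAC (log2 difference 11.54, SE 0.25, adjusted p = 5.55e-06, limma). Its receptor PLAUR was at 1.49 FPKM in CL1-0 and 31.7 in CL1-5 in Mock. PLAT and SERPINE2 were also among the genes called.

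Of the AP-1 subunits, whose motif stood in 6 of the promoters, 3 of 7 were called higher (FOSL1, FOSL2 and JUN) and 0 lower, with a median of 1.57. FOSL1 was at 6.82 FPKM in CL1-0 and 94.5 in CL1-5 in Mock (log2 difference 3.92, SE 0.18, adjusted p = 4.54e-05, limma), and JUN at 2.81 and 72.6 (4.49, SE 0.61, adjusted p = 0.00296, limma). Among the ETS factors ETS1, ETS2 and ELK3 were called higher and ETV1 lower, of 6 tested, with a median of 1.43. ETS1 was at 0.273 FPKM in CL1-0 and 16.7 in CL1-5 in Mock. The 6 promoters with the AP-1 word include those of MMP1, higher in CL1-5, and MMP10, lower in CL1-5, and not that of MMP14. The part of these factors in the differences of the metalloproteinases was not tested.

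Inducers and other inhibitors were examined in the same way. Of the 8 inducers and activators tested, IL6, IL1B and EGFR were called higher and 0 lower, and IL6 was at 0 reads in both CL1-0 libraries against 15.1 and 47.0 FPKM in CL1-5. The median over the list was 2.18. TIMP3, a matrix-bound inhibitor, was at 3.48 FPKM in CL1-0 and 51.9 in CL1-5 in Mock (log2 difference 4.48, SE 0.43, adjusted p = 0.000695, limma), while TIMP4 and RECK, with differences of 0.20 and 0.40, were not called (median of the 3 inhibitors 0.40). Of the 9 other metalloproteinases tested, MMP16 alone was called, at 0 reads in CL1-0 and 0.621 FPKM in CL1-5 in Mock (median of the list 0.22).

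Among 12 genes for matrix proteins that these enzymes cut, 6 were called higher in CL1-5, among them FN1, LAMA3, LAMB3, SPARC and TNC, and COL1A2 and COL3A1 were called lower, with a median of 1.98. LAMA3 and LAMB3, which encode chains of a basement membrane laminin, were at 0.0357 FPKM or less in Mock CL1-0, and LAMA3 was at 5.995 and LAMB3 at 94.5 FPKM in Mock CL1-5. Of 8 ADAM family proteases, ADAM12, ADAM15 and ADAM19 were called higher and ADAMTS1 lower (median 0.27).

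Markers of cell type moved in the same contrast. KRT7, KRT8 and KRT18 of the 6 epithelial markers were called higher in CL1-5, with a summed level of the list of 0.986 and 3.05 FPKM in CL1-0 and 144 and 139.7 FPKM in CL1-5. Of the 6 mesenchymal markers, CDH2 and SNAI2 were called higher and ZEB2 and TWIST1 lower (medians of the lists 3.34 and 1.10). Among markers of other cells, NAPSA, under 0.5 FPKM in these libraries, and 1 of the 2 leukocyte markers tested were called lower, and 0 of the 2 fibroblast markers tested were called. The medians were −1.21 over 2 lineage, −0.48 over 2 leukocyte and 0.60 over 2 fibroblast markers tested. The part of these differences in those of MMP1, MMP14 and MMP10 was not tested.

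To find out how DAC changed the genes, DAC and Mock libraries were compared over the 5 lines with the line as a block. None of the 9 genes tested passed an adjusted p of 0.05, and MMP1 came closest. Over all genes tested, 0.119% (27 genes) were called higher and 0% lower, against 1825 higher and 994 lower at an unadjusted p under 0.05, so that this comparison called few genes of any kind. With voom on the recovered reads 199 genes were called higher and 0 lower, again without a member.

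MMP1 was higher after DAC in 6 of 6 lines, and in all 6 the interval of the ratio lay above 1. The ratio was 2.36 in CL1-0 (95% interval 1.47 to 3.92), 2.18 in CL1-5 (2.08 to 2.29), 15.8 in H1299 (14.6 to 17.2) and 44.2 in H1792 (16.9 to 164). In A549 and PC9 it went from 0 reads to 7 and 6 reads, 1.98 and 1.80 times the level of 3 reads. The lower ends of these 2 intervals were 1.22 and 1.06. The log2 difference over the 5 lines was 1.73 (SE 0.43, adjusted p = 0.235, limma). Over 15 other settings it lay between 1.16 and 2.81, with adjusted p from 0.0937 to 1.00 in limma or voom, and it was called in 0 of them.

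MMP14 after DAC was 2.39 times its Mock level in A549, 2.49 in CL1-0 and 5.02 in PC9, the 3 lines with the lowest Mock levels, and 1.38 times in H1792. It was lower after DAC in CL1-5 (0.871, interval 0.852 to 0.890) and H1299 (0.690, 0.665 to 0.715). The log2 difference was 0.79 (SE 0.39, adjusted p = 0.443, limma), and 0.41 without PC9. MMP2 had the same split of lines. Its ratio was 4.75 in A549, 2.13 in CL1-0, 6.34 in PC9 and 1.05 in H1792, and 0.547 in CL1-5 and 0.341 in H1299. The log2 difference was 0.54 (SE 0.55, adjusted p = 0.681, limma). It was 0.15 without PC9, 0.18 without A549, 0.89 without CL1-5, 1.03 without H1299 and 0.11 with voom.

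TIMP2 was 2.098 times higher in A549, 3.005 in PC9, 1.72 in H1792, 1.69 in CL1-5 and 1.04 in CL1-0, and 0.797 of its Mock level in H1299. The log2 difference was 0.63 (SE 0.27, adjusted p = 0.403, limma), and 0.39 without PC9. TIMP1 changed by a ratio between 0.725 in H1299 and 1.85 in H1792, with a log2 difference of 0.01 (SE 0.15, adjusted p = 0.987, limma).

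**Figure D2:**
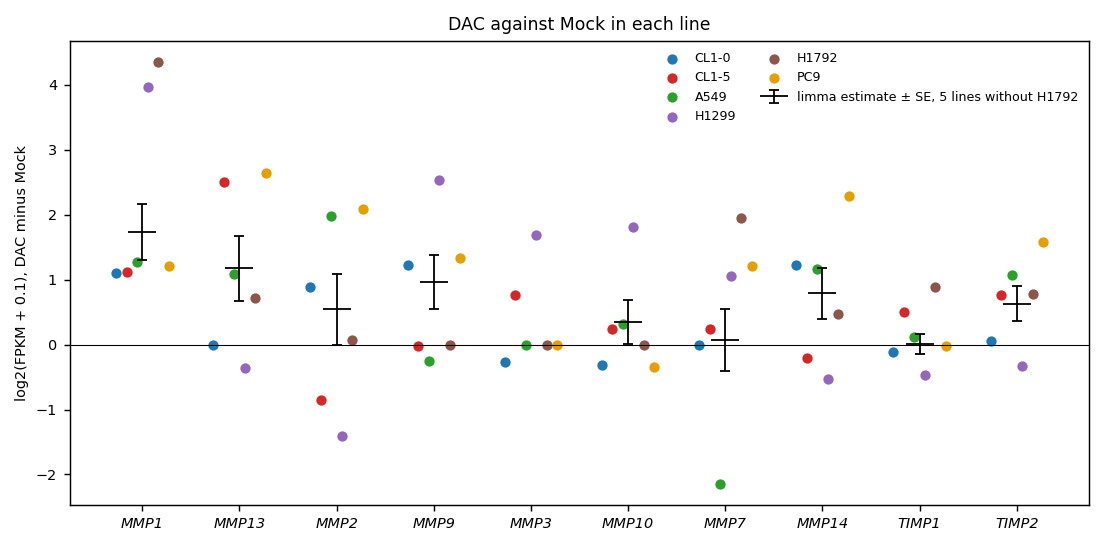
Change after DAC in each line. The y axis is the difference in log2(FPKM + 0.1), DAC minus Mock, points are lines by color, and black bars are the limma estimate ± SE over the 5 lines without H1792 (no estimate for MMP3). MMP1 lies above 0 in all 6 lines, while MMP2 and MMP14 lie below 0 in CL1-5 and H1299.

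The low-level genes differed in some of the lines. MMP13 was higher after DAC, by its interval, in A549, CL1-5 and PC9, and MMP9 in CL1-0, PC9 and H1299. MMP13 went from 0 to 8 reads in A549, 2.26 times the level of 3 reads (lower end of the interval 1.45). In CL1-5 it went from 0 to 32 reads, 11.9 times that level (lower end 9.13). In PC9 it went from 2 to 48 reads, a ratio of 21.6 (interval 5.65 to 183). MMP9 went from 37 to 258 reads in H1299 (ratio 7.55, interval 5.33 to 10.96), from 4 to 21 reads in CL1-0 (4.19, 1.41 to 16.8) and from 1 to 11 reads in PC9 (9.88, 1.44 to 425). MMP10 was 4.21 times its Mock level in H1299 (2.90 to 6.25), was 0.805 of its Mock level in CL1-0 (0.665 to 0.973), and was unresolved in CL1-5 (1.23, 0.639 to 2.37). The fitted differences were 1.17 for MMP13, 0.96 for MMP9 and 0.34 for MMP10, with adjusted p of 0.399, 0.408 and 0.673 in limma.

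MMP7 was 4.50 times higher in Mock than after DAC in A549 (interval 3.90 to 5.204), the line that expressed it. In H1792 it was 4.96 times higher after DAC than in Mock (2.82 to 9.32). In H1299 it went from 4 to 21 reads and in PC9 from 0 to 7. Its fitted difference was 0.07 (SE 0.48, adjusted p = 0.960, limma), and the sign turned in 5 of 14 other settings. MMP3 went from 0 to 24 reads in H1299 and from 3 to 8 reads in CL1-5 (2.98, 0.714 to 17.4).

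In each line, the genes of the family past 2-fold on the log2(FPKM + 0.1) scale were counted beside the share of all genes past the same fold. PC9 had 7 of the 9 higher, against 10.2% of all genes, and 0 lower, against 3.1%. A549 had 5 higher (15.5%) and MMP7 lower (6.69%), and H1299 had 4 higher (8.18%) and MMP2 lower (3.15%). CL1-0 had 3 higher (7.6%) and 0 lower (2.14%), CL1-5 had 2 higher (7.25%) and 0 lower (5.05%), and H1792 had 2 higher (10.3%) and 0 lower (5.79%). Most of the genes counted higher on this scale were under 1 FPKM in Mock. With a pseudocount of 1 the higher counts were 2 in PC9 (2.0% of all genes), 1 in A549 (3.8%), 2 in H1299 (2.99%), 0 in CL1-0 (0.765%), 1 in CL1-5 (1.77%) and 1 in H1792 (2.88%).

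Side by side in the CL1 pair, MMP1 after DAC was at nearly the same multiple of its Mock level in both lines. MMP14 and MMP2 were above their Mock level in CL1-0 and below it in CL1-5, TIMP1 was the reverse (0.927 in CL1-0 and 1.42 in CL1-5), and MMP13 was detected in CL1-5 alone. These differences between the lines rest on 1 library per line and treatment and were not tested. In the 13 other lists, 0 genes were called after DAC in limma in either direction.

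Accessible chromatin was examined within 3000 bp of each start site in the 8 peak lists, which the authors called per library. TIMP1 and TIMP2 had a peak at the start site in all 8 lists, MMP7, MMP10 and MMP13 in 0 of 8. Over all protein-coding genes, 71.6% to 79.9% had a peak in this window in a library. The fold enrichment of the TIMP1 peak was 4.17 to 8.16, above that of 69.4% to 92.4% of the peaks in its list, and that of the TIMP2 peak over the start was 2.29 to 3.93.

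MMP1 had a promoter peak in 1 list only, the DAC library labelled PC9, which carries the CL1-5 name inside. It spanned chr11:102668911-102669197, ending 20 bases upstream of the start site, with a fold enrichment of 3.47 and a −log10 q of 2.26. A weaker peak lay 1770 bases upstream in the same list. Inside the gene, a peak in intron 6 was found in both H1299 lists (fold enrichment 6.45 in Mock and 5.76 after DAC) and in the Mock library labelled PC9 with the CL1-5 name (5.79). H1299 and CL1-5 were the lines with the highest MMP1 mRNA. The DAC library with the CL1-5 name had no peak inside the gene, while MMP1 was at 101 FPKM in DAC-treated CL1-5. The stretch common to the 3 peaks, chr11:102665117-102665406, is shown on the gene's strand, with no part marked because it held no AP-1 word and 0 CpGs. Of windows of this length centred on the H1299 Mock peaks, 10.7% held an AP-1 word.

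MMP1 intron 6, chr11:102665117-102665406 (-): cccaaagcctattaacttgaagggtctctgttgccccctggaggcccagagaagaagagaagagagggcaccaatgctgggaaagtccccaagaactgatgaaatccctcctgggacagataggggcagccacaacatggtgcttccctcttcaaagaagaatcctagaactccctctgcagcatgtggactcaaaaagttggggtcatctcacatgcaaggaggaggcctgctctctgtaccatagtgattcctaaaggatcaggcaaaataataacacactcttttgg

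A further peak about 10 kb upstream of MMP1 was found in A549 (both lists), in the libraries labelled CL1-5 with the PC9 name (both) and in DAC-treated H1299, and in neither library labelled PC9. MMP1 was at 0 reads in Mock A549 and Mock PC9.

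MMP14 had a peak over its start in Mock H1299 (fold enrichment 2.96) and in the Mock library labelled PC9 (3.79). After DAC the peaks lay 357 bases (H1299), 674 bases (labelled CL1-5) and 1827 bases (labelled PC9) downstream, in intron 1. They were weak, with fold enrichments of 2.72, 3.13 and 2.30 and a −log10 q of 2.08, 1.87 and 1.56. The Mock peak of H1299 had a −log10 q of 1.96, and the Mock library labelled CL1-5 had no MMP14 peak. Whether the peak moved was not tested. MMP2 had a peak over its start in both libraries labelled PC9 (3.82 in Mock and 3.08 after DAC) and in DAC-treated A549 (3.53). Its mRNA after DAC was 4.75 times that of Mock in A549. In PC9 it was 6.34 times, and neither library labelled CL1-5 with the PC9 name had an MMP2 peak in the window. The A549 list held 58734 peaks in Mock and 78199 after DAC, and the other DAC lists were also longer than their Mock lists. A link between peak and mRNA was not tested. MMP3 had a peak over exon 1 and intron 1 in the Mock library labelled PC9 (7.23, above 89.2% of that list), while its mRNA was at 3 reads in Mock CL1-5 and 0 in Mock PC9. MMP9 had a peak in intron 6, about 3 kb downstream, in A549 and H1299 in both treatments and in the DAC library labelled CL1-5, and a weak peak over the start in the Mock library labelled CL1-5 (2.56).

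By label, the CL1-5 libraries held peaks at MMP9, MMP14, TIMP1 and TIMP2, and the PC9 libraries at MMP1, MMP2, MMP3, MMP14, TIMP1 and TIMP2. With the lines exchanged, as the names inside the lists have them, the peaks at MMP1, MMP2 and MMP3 belong to CL1-5, the line with 46.4 to 101 FPKM of MMP1 and 2.88 to 5.27 FPKM of MMP2. CL1-0 and H1792 were not analysed by Omni-ATAC-seq here, so that no accessibility comparison of CL1-5 with CL1-0 was made. In the chromosome 11 cluster as a whole, 8 to 18 peaks were found per library.

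Across the 12 libraries, the genes with the pattern most like a member were named by Pearson's r of log2(FPKM + 0.1) among 22814 genes, as a description, since the 2 libraries of a line are not independent. They were SCARF2 (r = 0.94) and C14orf39 (0.92) for MMP1, ELL2 (0.97) and CERKL (0.96) for MMP14, BCL11A and KDR (both 0.97) for MMP2, and KCNH6 and COMP (both 0.98) for MMP10. For MMP7 they were STAT4 and SERPINA6 (both 0.97), for MMP9 ZNF124 and RNF14 (both 0.92), for TIMP1 TMEFF2 (0.97) and CXCL3 (0.96), and for TIMP2 ITGA1 (0.93) and PITPNM2 (0.91). MMP3 and MMP13 never reached 1 FPKM and were left out.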

How the data were processed

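For mRNA-seq, the authors mapped trimmed reads with RSEM and bowtie2 (hg19), used GenomicAlignments to assign them to genes, and deposited FPKM values from DESeq2 1.24.0. The submitters' processing notes also name TopHat2 2.1.1. The table also holds a mean normalized signal per gene and the authors' own comparison (log2 fold change, its error, a test score and p-values), and these deposited comparison columns were not used. For Omni-ATAC-seq, the authors called broad peaks per library with MACS2 2.2.5 on BWA alignments to hg19 and deposited for each peak a score, the ratio of its signal to background (fold enrichment), and p- and q-values as −log10. The depth of these libraries is unknown here. The number of value columns without a sample was 0.

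Whole reads were recovered from FPKM and the mean normalized signal, and 100% of values were whole within 0.05 of a read. Genes averaging 0.1 FPKM or more over 10 libraries (22603 genes) were kept, and log2(FPKM + 0.1) was fitted with limma 3.58.1 in R 4.3.3 (line plus treatment, intensity trend, Benjamini-Hochberg adjustment at 0.05). The members and lists were chosen with earlier results of these data known. Mock and DAC libraries are paired by cell line, and after subtraction of treatment means the pair of a line correlated at 0.731 to 0.900, against at most 0.115 between lines, so that the line is a block. Ratio intervals are exact (Clopper-Pearson, 95%) and level intervals are exact Poisson, and both cover counting error only. The even read numbers of H1299 make its intervals too narrow. Tested on simulated data, nearly all false calls in the contrast of the lines were genes under 1 FPKM in both, and few remained with voom. The simulated lines had no response to DAC, so they cannot give the error rate under the spread between lines seen here.

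Named genes were the 10 members, genes of the other lists past the threshold or with the largest differences, and the 2 genes most like each member. Start sites, exons and sequences come from GENCODE MANE transcripts on GRCh37, the build of the peak lists. Python 3.11.15, numpy 2.4.6, pandas 2.3.3, scipy 1.17.1 and matplotlib 3.10.9 were used. Some genes and promoter sequences are not reported here.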

Additional observations from a re-analysis of the deposited data

Results flagged for a closer look

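In 30 groups of 6 lines (the level of each gene in each treatment and its change after DAC), 4 had a line farther from the others than Dixon's limit. Chance passes this limit in about 1 of 20 groups of independent, normally distributed values. Here lines tie at 0 FPKM in several groups, and the groups of a gene are not independent. The 4 are therefore a description and cannot be set against chance. MMP7 was at 18.4 FPKM in Mock A549, with the next line at 0.260. MMP2 was at 191 FPKM in DAC-treated H1792, with the next line at 2.88. MMP13 was at 0.728 FPKM in Mock H1299, with the next line at 0.0340. The change of MMP10 after DAC was 1.81 in H1299 on the log2(FPKM + 0.1) scale, with the next line at 0.31. The H1299 libraries had the most reads, and their part in these values was not tested.

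CL1-0 and CL1-5 changed in opposite directions after DAC for 3 genes, with 1 library per line and treatment, and the difference was not tested. The log2 change in CL1-5 minus that in CL1-0 was −1.74 for MMP2, −1.43 for MMP14 and 0.62 for TIMP1.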

How the results depend on the processing

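MMP1, MMP14 and MMP10 kept their direction and their call between CL1-5 and CL1-0 in 13 of 13 other settings each. MMP2 passed the threshold in 5, with adjusted p in limma of 0.0394 with a pseudocount of 1, 0.0479 with a mean FPKM of at least 1, 0.0335 with quantile normalization, 0.0447 with H1792 added and 0.0408 without H1299. The 27 genes higher after DAC became 0 with a pseudocount of 1, 2 with no filter, 17 with quantile normalization, 6 with no trend, 53 with H1792 added and 199 with voom. Leaving out a line gave 0 to 22 genes higher (0 without A549 and 0 without CL1-5) and 0 to 1 lower. Without the replicate block, 10 genes were called higher after DAC, and 2088 higher and 1708 lower between the CL1 lines, and no call of a member changed. With a pseudocount of 1 the genes of the family past 2-fold after DAC were 1 higher in A549, 0 in CL1-0, 1 in CL1-5, 1 in H1792, 2 in PC9 and 2 in H1299, against 0.765% (CL1-0) to 3.8% (A549) of all genes, with 0 lower in H1299 against 1.09%. The DAC estimate of MMP7 turned to −0.31 with a pseudocount of 1, −0.21 with quantile normalization, −0.46 with voom, −0.21 without PC9 and −0.18 without H1299, and with a line left out ranged up to 0.089. That of MMP10 ranged from −0.025 (without H1299) to 0.51 with a line left out, and that of TIMP1 from −0.12 (without CL1-5) to 0.13, with −0.02 without A549. With a line left out, the estimate was 0.15 to 1.03 for MMP2, 0.41 to 1.12 for MMP14, 0.57 to 1.27 for MMP9 and 0.81 to 1.55 for MMP13. The cause was not tested. The median of all genes after DAC was 0.07, and 0.17 with voom. Counting limits MMP3, MMP9 and MMP13 most, which rest on few reads in most libraries.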
